A study of Mus musculus with 16 samples.

Results

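The genes of the mitochondrial respiratory chain were examined in RNA of cardiac endothelial cells from mice of 4 genotypes. They were taken from the deposited gene table as protein-coding genes whose symbol begins with the names of the chain's subunits (Nduf, Sdha to Sdhd, Uqcr, Cox4 to Cox8, Atp5) or that lie on the mitochondrial chromosome. This gave 105 of 43629 genes, 92 of them nuclear and 13 mitochondrially encoded. The choice used names and positions only, and no measured value. Of the nuclear genes 91 were read often enough to be tested, and of the mitochondrial genes 7.

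All mice were of the C57BL/6J strain, 8 to 10 weeks old, and had received tamoxifen to switch on Cre recombinase in endothelial cells, with RNA taken on day 6. The 4 groups were Cre controls, deletion of Klf2 (K2KO), deletion of Klf4 (K4KO) and deletion of both (DKO), with 4 samples each, every sample a pool of 2 mice. The labels name the deletion as endothelial-specific but not the promoter that drives Cre, and cells were captured with beads against CD31, an endothelial surface protein that some blood cells also carry. Klf2 and Klf4 encode flow-responsive transcription factors of endothelium.

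The respiratory chain passes electrons from NADH and succinate to oxygen through complexes I to IV in the inner mitochondrial membrane, and complex V, the ATP synthase, uses the resulting proton gradient to make ATP. Complex II is wholly nuclear encoded, while complexes I, III, IV and V combine nuclear subunits with a few subunits translated inside the organelle from mitochondrial DNA. Several complex IV subunits exist as tissue isoforms, with separate genes for heart and skeletal muscle, for testis and for low oxygen. Endothelial cells draw much of their ATP from glycolysis, whereas cardiomyocytes depend on the respiratory chain.

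The libraries held 21.1 to 106 M reads (megareads), the deepest being column 4 of the group labelled DKO. Klf2 was lower in K2KO than in controls (log2 -1.06 ± 0.16 SE, limma adjusted p = 0.00682). Klf4 in K4KO lay below every control library (log2 -0.71 ± 0.15, limma adjusted p = 0.118). In the libraries labelled DKO, Klf2 differed from controls by 0.36 ± 0.16 (limma adjusted p = 0.0881) and Klf4 by -0.03 ± 0.15 (limma adjusted p = 0.923), so neither transcript was called lower there, and these libraries are named DKO-labelled throughout. Endothelial markers were abundant in every library: their sum was 243091 to 301568 scaled counts in controls and 291747 to 340896 in the DKO-labelled group, with 5 of 10 called higher and 3 called lower. Over all genes tested, 19.0% were called higher and 19.3% lower. Levels below are scaled read counts, which the authors had divided by 1 factor per library, changes are log2 of value + 1 with their SE from limma, and a gene is called at an adjusted p below 0.05 over all 23816 genes tested.

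In the DKO-labelled libraries more nuclear genes of the chain rose than fell, while the mitochondrially encoded genes that were called all fell. Of 91 nuclear genes tested, 34 rose, 9 fell and 48 were not called, and their median change was 0.17. Of 7 mitochondrially encoded genes tested, 0 rose and 5 fell, and their median change was -0.48. Over all genes tested, 38.3% were called in this comparison, 19.0% higher and 19.3% lower, with a median change of -0.03. The nuclear genes thus held 37.4% called higher and 9.89% called lower, and 71.4% of the 7 mitochondrial genes were called lower. The all-gene shares include many genes with few reads. Among the 16904 genes with a mean of at least 5, 26.8% were called higher and 27.4% lower. Under that filter 36 nuclear genes were called higher and 9 lower, and 6 mitochondrial genes lower, so the nuclear excess of rises was smaller against these genes. The sign of both medians held under each scaling tried. Setting the libraries to the same median raised the all-gene median to 0.18, and setting them to the same sum outside the mitochondrial chromosome took it to -0.14. Measured from the all-gene median, the nuclear median was 0.20 higher as deposited, 0.25 and 0.17 higher under these settings, and the mitochondrial median stood at -0.46, -0.40 and -0.48. How many genes passed did depend on the scaling. With the same sum the nuclear median itself was 0.03, with 23 nuclear genes called higher and 14 lower. With the same median it was 0.43, 63 nuclear genes were called higher and 2 mitochondrial genes lower, and the share of higher calls among all called genes went from 49.7% to 70.4%, against 35.8% with the same sum.

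**Figure D1:**
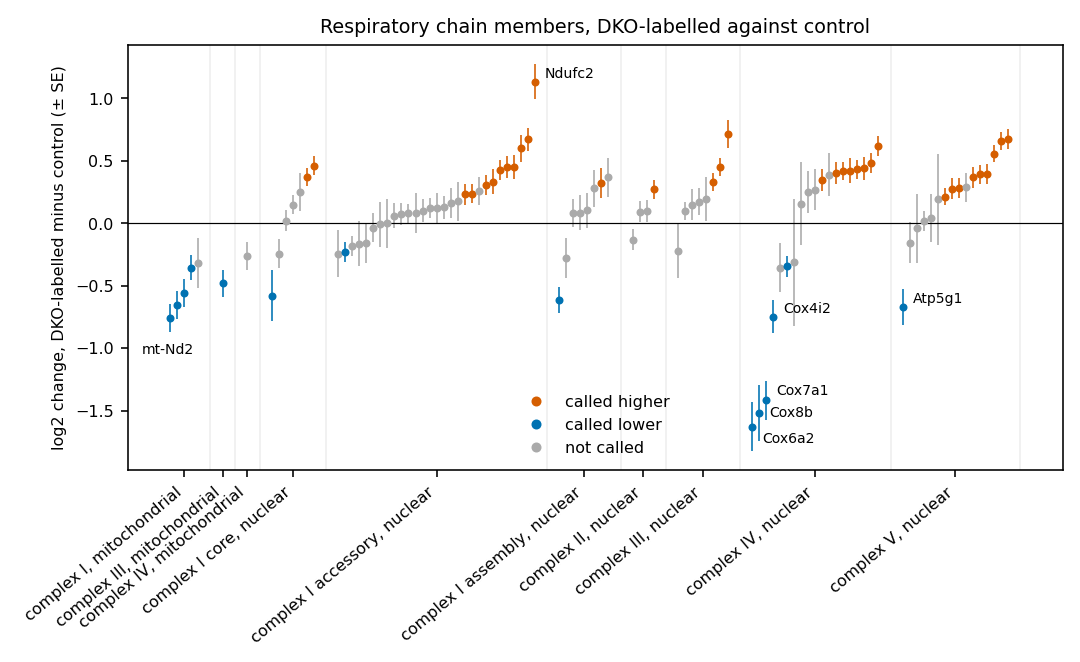
Each point is 1 tested gene of the respiratory chain, placed by complex and by genome of origin, with its log2 change in DKO-labelled against control libraries and its SE on the vertical axis. The 5 mitochondrial genes called lower lie between -0.36 and -0.76, complex V has 9 of 16 genes called higher, and the muscle isoforms Cox6a2, Cox8b and Cox7a1 lie lowest.

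The same contrast was visible in every library. The summed level of the mitochondrially encoded genes was 3.22, 3.40, 3.01 and 4.03 times that of the nuclear ones in the controls. It was 3.15, 3.87, 3.33 and 3.16 times in K2KO and 3.25, 3.44, 3.47 and 4.46 times in K4KO. In the DKO-labelled libraries it was 2.33, 1.97, 1.96 and 2.19 times, below all 12 others. The mitochondrially encoded genes received 1.11 to 1.41% of all reads in controls and 0.819 to 0.969% in the DKO-labelled libraries. Of these 13 genes only the 7 tested had more than 1 read, so the mitochondrial sums and shares leave the others out. Nuclear genes of the chain took 0.350 to 0.376% of reads in controls and 0.415 to 0.431% in the DKO-labelled libraries. These shares did not overlap between the groups. As a share of reads outside the mitochondrial chromosome, the nuclear genes took 0.462 to 0.474% and 0.512 to 0.534%, again without overlap. In RNA of whole samples, fewer cells of a type and less RNA per cell cannot be told apart.

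**Figure D2:**
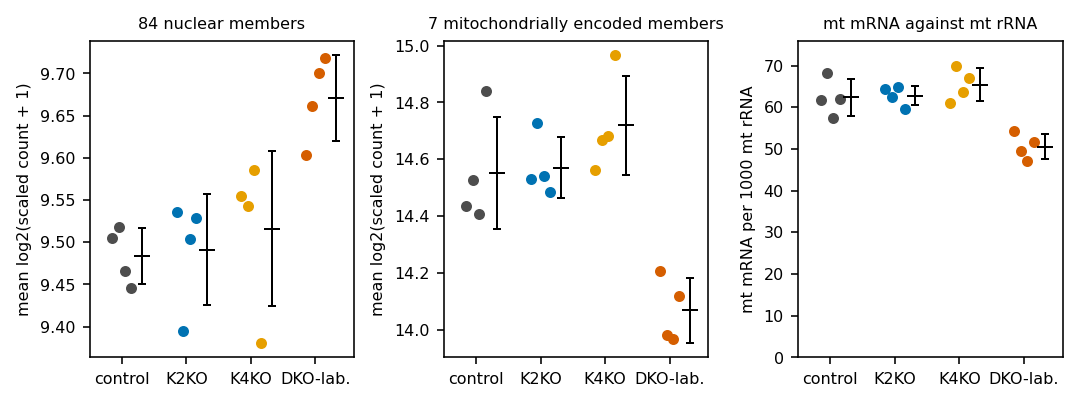
Mean log2 scaled count of 84 nuclear genes (without the 8 tissue isoforms) and of 7 mitochondrially encoded genes, and mitochondrial messenger RNA per 1000 mitochondrial ribosomal RNA counts, with 1 point per library and bars for the mean ± SD of n = 4. DKO-labelled libraries lie above all others in the first panel and below all others in the second and the third. With all 91 tested nuclear genes, isoforms included, the DKO-labelled libraries stood at 9.28 to 9.38. They then lay above the controls, at most 9.27, but not above all other libraries, at most 9.34.

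No gene of the chain was called in either single knockout. In K2KO against controls 0 of 98 tested genes were called by limma, and also 0 by edgeR and 0 by DESeq2 on the recovered reads, with 0.168% of all genes called by limma. At an unadjusted p under 0.05 there was 1 gene. In K4KO against controls the count was again 0 by limma, edgeR and DESeq2, with 0.0630% of all genes called by limma, and the 1 gene at an unadjusted p under 0.05 was Ndufs3, a core subunit of complex I. Of all genes tested, 6.48% in K2KO and 7.06% in K4KO had an unadjusted p under 0.05. The nuclear median change was 0.00 in K2KO and 0.05 in K4KO, and the mitochondrial median was 0.01 and 0.12.

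Against the single knockouts, the DKO-labelled libraries showed the following values, which share those libraries with the comparison above and are no independent repeat of it. Against K2KO 32 nuclear genes were higher and 7 lower, with 36.6% of all genes called in either direction, 17.7% higher and 18.9% lower, and 5 of 7 mitochondrial genes were lower. Against K4KO 31 nuclear genes were higher and 8 lower, with 39.6% of all genes called in either direction, 19.1% higher and 20.4% lower, and 7 of 7 mitochondrial genes were lower. The interaction, which asks whether the difference between DKO-labelled and K2KO differed from that between K4KO and control, was called for 16 nuclear genes in the higher and 5 in the lower direction, and for 6 of 7 mitochondrial genes in the lower direction. Of all genes, 26.7% were called in the interaction, 12.8% higher and 13.8% lower. Over all tested genes the median was -0.11 against K2KO, -0.11 against K4KO and -0.14 in the interaction.

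Mitochondrial DNA encodes 7 subunits of complex I, the cytochrome b of complex III, 3 catalytic-core subunits of complex IV and 2 of the membrane sector of complex V. Only part of this set could be read. mt-Co2, mt-Co3, mt-Atp6, mt-Atp8 and mt-Nd4l had 0 reads in all 16 libraries, and mt-Nd3 had 1 read, whereas their neighbour mt-Co1 (MT, 5328 to 6872) had 2493409 reads and mt-Nd4 (MT, 10167 to 11544) had 290091. In the GRCm38 transcripts of GENCODE M21, 98.0 to 100% of the 50-base words of mt-Co2, mt-Co3, mt-Atp6, mt-Nd3 and mt-Nd4l also occur in another annotated gene. These are unprocessed pseudogenes on the minus strand of chromosome 1, of which Gm28661, Gm10925, Gm28437, Gm28438 and Gm10222 match mt-Co2, mt-Atp6, mt-Co3, mt-Nd3 and mt-Nd4l with 100% identity over the aligned stretch. The copies themselves had 0 to 6 reads over all libraries. How reads with more than 1 matching place were counted is not known, and the part of these copies in the missing reads was not tested. The first 60 bases of mt-Co2 and of its chromosome 1 copy are shown because they are the same letter by letter, with mt-Co2 at MT:7013-7072 on the plus strand and Gm28661 at chr1:24615506-24615565 on the minus strand of GRCm38.

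mt-Co2: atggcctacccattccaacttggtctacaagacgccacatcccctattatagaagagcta
Gm28661: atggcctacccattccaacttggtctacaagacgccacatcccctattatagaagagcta

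A gene at 0 reads here was thus not taken as unexpressed, and complex V has no mitochondrial subunit with reads. Among the genes that were read, mt-Nd4 shared 62.2% of its words with other genes and mt-Co1 51.1%, mt-Nd2 8.19% and mt-Nd5 7.61%, and mt-Nd1, mt-Nd6 and mt-Cytb shared 0. mt-Atp8 (MT, 7766 to 7969) shared no word with another annotated gene and was still at 0, between 2 unread neighbours, mt-Co2 and mt-Atp6. The chromosome 1 copies of these neighbours lie close together, at 24614885 to 24615565 and 24613974 to 24614651. Words were compared with annotated genes only, so whether the stretch between these copies matches mt-Atp8 was not tested.

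**Figure D3:**
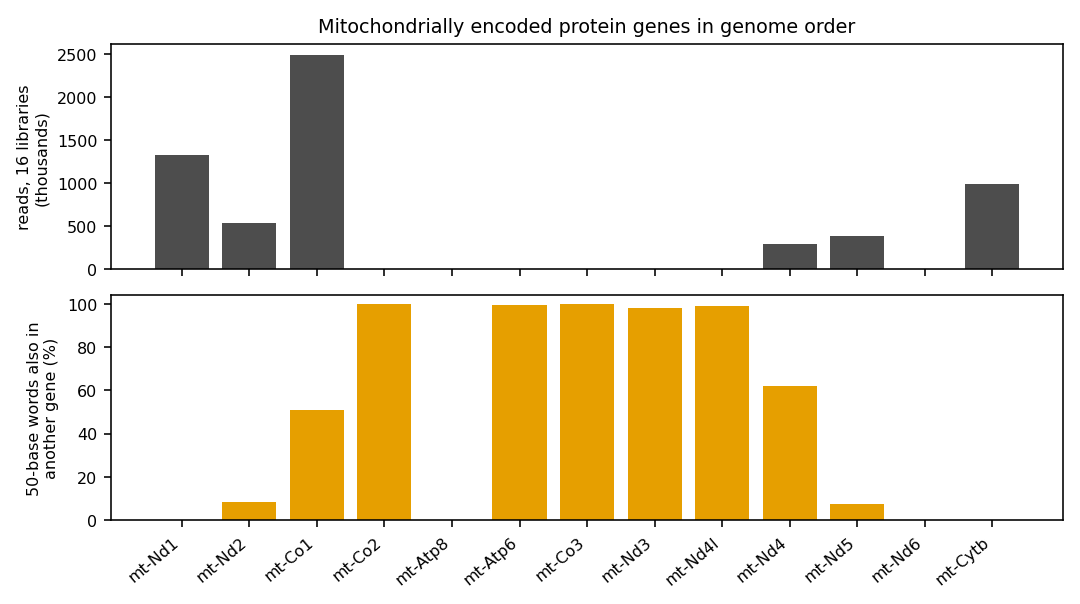
The 13 mitochondrially encoded protein genes in genome order, with reads summed over 16 libraries, in units of 1000 reads (upper bars) and the share of 50-base words that also occur in another annotated gene (lower bars). Of the 6 genes at 0 or 1 read, 5 share 98.0 to 100% of their words, and mt-Atp8 shares none with an annotated gene.

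Among the mitochondrial genes tested, the 3 largest falls were in complex I subunits. mt-Nd2 (MT, 3914 to 4951), a membrane-arm subunit, stood at 32718, 35069.7, 29008 and 41470.0 in the controls and at 23408, 18439, 17432 and 22377 in the DKO-labelled libraries. All 4 DKO-labelled libraries were below all controls and below the 33879.7 to 44914 of the single knockouts. Its change was -0.76 ± 0.12 (limma adjusted p = 2.76e-05), with an exact permutation p of 0.0286, the smallest that 4 against 4 libraries allow.

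mt-Nd5 (MT, 11742 to 13565), another proton-pumping membrane subunit, stood at 24035, 24788, 21489 and 28356 in controls and at 17473, 14723, 14589 and 15848 in the DKO-labelled libraries. The groups did not overlap, and the change was -0.65 ± 0.11 (limma adjusted p = 0.000103). mt-Nd4, a further membrane-arm subunit, stood at 16088, 17736, 16659 and 21248 in controls and at 13527, 11345, 11335 and 12312 in the DKO-labelled libraries. It fell without overlap by 0.56 ± 0.11 on the log2 scale (limma adjusted p = 0.000583). mt-Nd1 (MT, 2751 to 3707), which lies at the junction of the membrane and matrix arms, fell from 71759 to 90895 in controls to 58639 to 66811, a change of -0.36 ± 0.10 (limma adjusted p = 0.0074).

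mt-Nd6, the protein gene that lies on the opposite strand of the mitochondrial genome, behaved less clearly. It stood at 325, 351, 432 and 687 in controls and at 398, 339.6, 319 and 323 in the DKO-labelled libraries, so the groups overlapped, with a change of -0.32 ± 0.20 (limma adjusted p = 0.235). Per kilobase of exon it stood at 865 scaled counts in controls, against 13523 for mt-Nd5 on the other strand. mt-Nd6 lies at MT, 13552 to 14070, and overlaps mt-Nd5 only from 13552 to 13565. Whether reads were counted by strand is not known.

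mt-Cytb (MT, 14145 to 15288), the electron-carrying core of complex III, stood at 59251, 60663, 53828 and 73022 in controls and at 48969, 40394, 40593 and 46285 in the DKO-labelled libraries. The groups did not overlap, and the change was -0.48 ± 0.11 (limma adjusted p = 0.00164). mt-Co1, the catalytic subunit of complex IV, stood at 143964, 150214, 132232 and 163476 in controls and at 126771, 115377, 120135 and 128847 in the DKO-labelled libraries. Every DKO-labelled library was below every control, yet the change of -0.26 ± 0.11 missed the threshold (limma adjusted p = 0.0692). It passed under 7 of 18 alternatives, with edgeR and DESeq2 among them, and was 0.00 with the libraries set to the same median. Under that setting mt-Nd1 at -0.09, mt-Nd4 at -0.29 and mt-Cytb at -0.22 were not called, while mt-Nd2 and mt-Nd5 were.

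The fall was uneven among the mitochondrial genes, as ratios within a library showed, in which a scaling factor cancels. The ratio of mt-Nd2 to mt-Nd1 was 0.404 to 0.456 in controls and 0.289 to 0.371 in the DKO-labelled libraries, and that of mt-Nd2 to mt-Co1 was 0.219 to 0.254 and 0.145 to 0.185. Neither ratio overlapped between the groups. Both set mt-Nd2, the gene with the largest fall, against genes with smaller falls in the same libraries. They thus restate the changes above and are no independent result. The summed mitochondrial messenger RNAs were also lower against the ribosomal RNAs of the same genome, at 57.4 to 68.1 per 1000 ribosomal RNA counts in controls, 59.6 to 64.9 in K2KO, 61.0 to 69.95 in K4KO and 47.0 to 54.2 in the DKO-labelled libraries. Taken alone, mt-Co1 overlapped on this measure, at 23.3 to 27.6 in controls and 21.3 to 23.4 in the DKO-labelled libraries. The summed ribosomal RNA itself overlapped between the groups. Per kilobase of exon, the highest control levels were those of mt-Co1 at 95451, mt-Nd1 at 83516 and mt-Cytb at 53926 scaled counts, and the highest nuclear ones were those of Atp5a1 at 3457 and Atp5b at 3144.

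Complex I is the largest group among the nuclear genes, with core subunits that carry the redox centres, accessory subunits that stabilise the complex and assembly factors that are not part of it. Of 7 core genes tested 2 rose and 1 fell (median 0.15), of 29 accessory genes 10 rose and 1 fell (median 0.12), and of 8 assembly genes 1 rose and 1 fell (median 0.09). These counts, and those of the other complexes below, stand beside 19.0% called higher and 19.3% called lower over all genes tested. Ndufc2 (chromosome 7, 97400003 to 97407802), an accessory subunit of the membrane arm, rose most of all nuclear genes tested. It stood at 925, 1105, 876 and 857 in controls and at 1539.8, 2152, 2872 and 1866 in the DKO-labelled libraries. These lay above all 12 other libraries, and the change was 1.13 ± 0.14 (limma adjusted p = 3.03e-06).

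Ndufb6, another membrane-arm accessory subunit, stood at 400.3, 378, 391 and 426 in controls and at 623, 619.9, 657 and 642 in the DKO-labelled libraries, a rise of 0.67 ± 0.09 (limma adjusted p = 6.51e-06). The groups did not overlap, although 31.6% of its 50-base words occur in other genes. Ndufa1, a small accessory subunit encoded on the X chromosome, rose from 331 ± 30.6 to 501 ± 18.9 (mean ± SD, n = 4; change 0.60 ± 0.11).

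The complex I genes that fell were few. Ndufs7, a core iron-sulphur subunit, stood at 431, 633, 446 and 329 in controls and at 258, 326, 353 and 269 in the DKO-labelled libraries. The groups overlapped, the change was -0.58 ± 0.20 (limma adjusted p = 0.0292), and it was not called under 6 of 18 alternatives. Ndufb10, an accessory subunit, changed by -0.23 ± 0.08 (limma adjusted p = 0.028), lost its call under 5 alternatives and changed sign to 0.03 with the libraries set to the same median. Atp5sl, named after an ATP synthase factor but known as a complex I assembly protein, fell from 624, 681, 551 and 578 to 386, 390.2, 398 and 409, without overlap (-0.61 ± 0.10, limma adjusted p = 7.04e-05).

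Complex II, which is also an enzyme of the citric acid cycle, moved little. Of its 4 genes only Sdhd, a membrane anchor, was called, at 1489 ± 19 in controls and 1799 ± 111 in the DKO-labelled libraries (change 0.27 ± 0.08), and the median of the 4 was 0.09. Complex III had 3 of 8 nuclear genes higher and 0 lower, with a median of 0.18. Its subunit gene Cyc1, whose symbol the rule does not match, is not among these 8. Uqcrb, a small matrix-side subunit, rose from 415, 405, 430.0 and 603 to 759, 739.7, 695 and 816. The DKO-labelled libraries lay above all controls, control 4 being the highest of these, and the change was 0.72 ± 0.11 (limma adjusted p = 3.77e-05), with 25.5% of its 50-base words also in other genes. Uqcrc2, a core subunit, rose from 3320.4 ± 157 to 4532 ± 239 (0.45 ± 0.07).

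Complex V had the highest share of rising genes, 9 of 16, with 1 lower and a median of 0.28. Atp5b (chromosome 10, 128083273 to 128090391), the catalytic beta subunit, stood at 13426, 13134, 13846 and 12875 in controls and at 20042, 21146, 20921 and 21803 in the DKO-labelled libraries. The single knockouts at 12810.0 to 15251 lay among or near the controls, and all 4 DKO-labelled libraries were above them. The change was 0.66 ± 0.07 (limma adjusted p = 6.2e-07). Atp5f1, the peripheral-stalk subunit b, rose from 1746, 1622, 1632 and 1993 to 2772, 2675, 2703 and 2969, without overlap (0.67 ± 0.08). It overlaps Wdr77 on the opposite strand, which had a mean of 625 in controls and 924 in the DKO-labelled libraries. Atp5a1, the alpha subunit, rose less, from 10836 ± 690.3 to 13164 ± 368 (0.28 ± 0.08, limma adjusted p = 0.00767).

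Subunit c of the proton-driven rotor is made from 3 genes with the same mature protein, and these did not move together. Atp5g3 rose from 1947 ± 105 to 2863 ± 88.8 (0.56 ± 0.07, limma adjusted p = 3.83e-06). Atp5g1 stood at 141, 145, 137 and 125 in controls and at 103, 70.4, 71.6 and 103 in the DKO-labelled libraries, which did not overlap (-0.67 ± 0.14, limma adjusted p = 0.000757). Atp5g2 had few reads, at 23.9 ± 4.66 and 23.4 ± 6.51, and shared 38.3% of its words with other genes. The log2 ratio of Atp5g1 to Atp5g3 was -3.96 to -3.62 in controls and -5.35 to -4.74 in the DKO-labelled libraries.

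Complex IV split by isoform. Of 19 nuclear genes tested 8 rose and 5 fell, and the falling ones included 3 muscle isoforms and the lung and low-oxygen isoform Cox4i2. Cox6a2 (chromosome 7, 128205436 to 128206366), the heart and skeletal muscle form of subunit 6a, stood at 283, 273, 215 and 192 in controls and at 79.8, 75.3, 85.0 and 65.9 in the DKO-labelled libraries. These lay below all 12 others, and the change of -1.63 ± 0.19 (limma adjusted p = 1.8e-06) was the lowest of the chain's tested genes.

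Cox7a1 (chromosome 7, 30184171 to 30186028), the muscle form of subunit 7a, stood at 257, 187, 210.2 and 216 in controls and at 95.3, 87.7, 84.7 and 58.4 in the DKO-labelled libraries (-1.42 ± 0.16, limma adjusted p = 7.14e-07). Cox8b (chromosome 7, 140898943 to 140900446), the muscle form of subunit 8, went from 111, 107, 89.4 and 83.4 to 35.5, 40.8, 35.9 and 23.4 (-1.52 ± 0.23, limma adjusted p = 2.18e-05). Neither gene overlapped between the groups. Cox4i2 (chromosome 2, 152754173 to 152765037) went from 544, 634, 509 and 443 to 302, 325, 345 and 286, again without overlap (-0.75 ± 0.13, limma adjusted p = 0.000146).

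**Figure D4:**
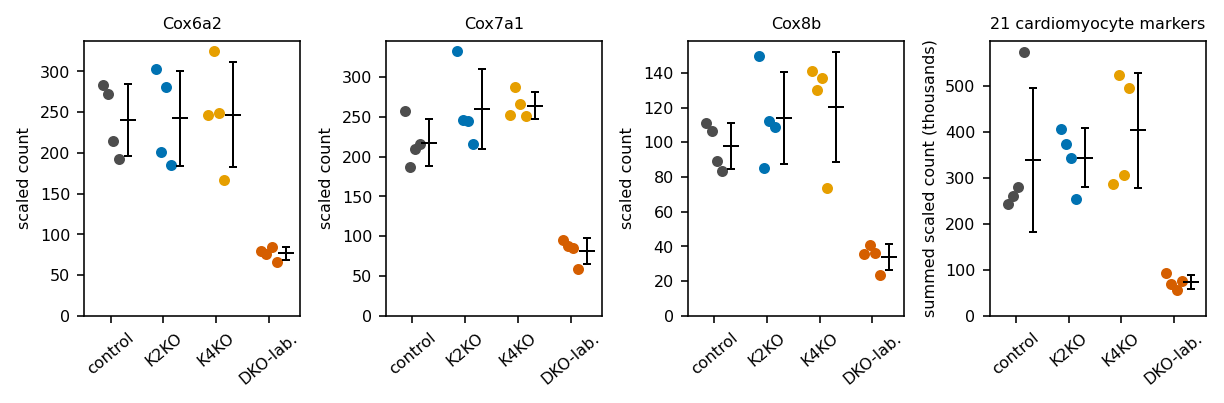
Scaled counts of the muscle isoforms Cox6a2, Cox7a1 and Cox8b and the summed scaled counts of 21 cardiomyocyte markers, in units of 1000, with 1 point per library and bars for the mean ± SD of n = 4. In all 4 panels the DKO-labelled libraries lie below every other library.

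RNA of some other cell types, but not of all, fell together with these isoforms. All 21 cardiomyocyte markers were called lower in the DKO-labelled libraries, with a median change of -1.83, and their sum was 242495 to 572633 in controls and 55207 to 92442 in the DKO-labelled group. No marker was at 0 in a control library, and 1 was at 0 in at least 1 DKO-labelled library. Per 1000 counts of these markers, Cox6a2 stood at 0.336 to 1.17 in controls and 0.863 to 1.54 in the DKO-labelled libraries, Cox8b at 0.146 to 0.459 and 0.308 to 0.651, and Cox7a1 at 0.378 to 1.06 and 0.769 to 1.53. Against the markers the groups thus overlapped for each of the 3 isoforms. Mural cell markers, of pericytes and smooth muscle, where Cox4i2 is known to be expressed, had 4 of 10 lower, with a sum of 124003 to 133045 in controls and 77029 to 94244 in the DKO-labelled group. Erythroid markers had 7 of 7 lower, lymphocyte markers 5 of 8 and macrophage markers 2 of 9, and fibroblast markers had 3 higher and 2 lower of 9. Over all genes tested, 19.0% were called higher and 19.3% lower. The macrophage and fibroblast sums overlapped between the groups. The part of other cells in the change of the isoforms and of the mitochondrially encoded genes was not tested. Control 4 had the highest cardiomyocyte sum of the controls, 572633, and their highest mitochondrial mean. Without it 5 mitochondrial genes were called lower, and the median of the mitochondrial genes tested went from -0.48 to -0.40. The other controls still had cardiomyocyte sums of 242495 to 279700, above every DKO-labelled library. Leaving control 4 out therefore does not test the part of other cells.

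The broadly expressed partners of these isoforms went the other way. Cox6a1 rose by 0.42 ± 0.10, Cox7a2 by 0.42 ± 0.07 and Cox8a by 0.40 ± 0.09, while Cox4i1, at 2872 ± 417 in controls and 3413 ± 525 in the DKO-labelled libraries, was not called (0.25 ± 0.17). The log2 ratio of Cox6a2 to Cox6a1 was -2.86 to -2.53 in controls and -4.99 to -4.49 in the DKO-labelled libraries. That of Cox7a1 to Cox7a2 was -3.24 to -2.73 and -5.33 to -4.51, that of Cox8b to Cox8a was -2.68 to -2.33 and -4.84 to -4.13, and that of Cox4i2 to Cox4i1 was -2.62 to -2.32 and -3.55 to -3.24. None of these ratios overlapped between the groups, and a scaling factor cancels in them.

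**Figure D5:**
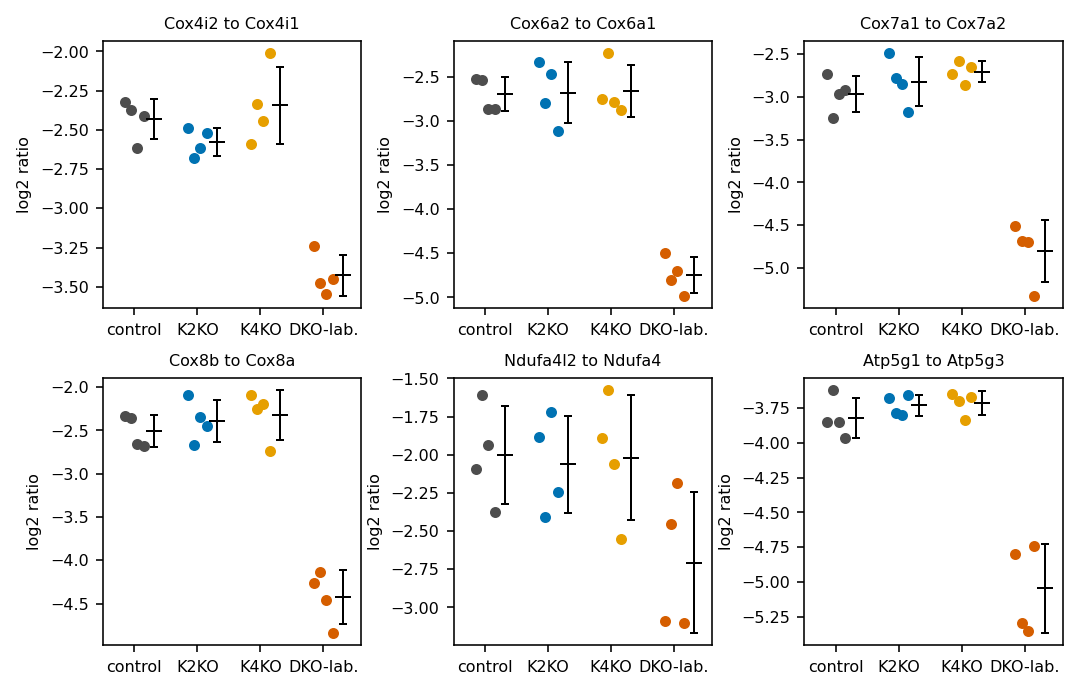
Log2 ratio of a tissue or paralogous form to its partner in each library, with 1 point per library and bars for the mean ± SD of n = 4. The DKO-labelled libraries lie below all others for 5 pairs, while for Ndufa4l2 to Ndufa4 the groups overlap.

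The other complex IV genes differed in direction. Cox7b, a small structural subunit, rose from 914, 845, 953 and 971 to 1324, 1461, 1497 and 1383, without overlap (0.62 ± 0.08, limma adjusted p = 3.9e-06). Cox6b1, which lies where the monomers of complex IV meet, rose from 1858 ± 94.1 to 2589.9 ± 112 (0.48 ± 0.08). Ndufa4, once counted with complex I and now with complex IV, rose from 1962 ± 157 to 2490.1 ± 175 (0.34 ± 0.09), and its low-oxygen paralogue Ndufa4l2 was not called, at 491 ± 72.5 and 389 ± 98.7. Cox7a2l fell from 1899 ± 192 to 1491 ± 112 (-0.35 ± 0.08, limma adjusted p = 0.00273), but was at -0.08 and not called with the libraries set to the same median. The testis isoforms Cox6b2 at 5.31 to 13.1 scaled counts, Cox7b2 at 0 to 4.03 and Cox8c at 0 to 1.46 were near the counting floor in all groups.

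Without the 8 tissue isoforms, 34 of 84 nuclear genes rose, 5 fell and 45 were not called, with a median of 0.20. Every DKO-labelled library lay above every control for 36 of the 91 nuclear genes tested and below for 10, where 18.9% and 18.1% of all genes were so separated. The authors' deposited table called 20 nuclear genes higher, 6 lower and 4 mitochondrial genes lower, and all of these were also called by limma. Of all genes that the authors tested there, 10.8% were called higher and 10.9% lower.

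Promoter sequence was examined for the nuclear genes, of which 76 of 92 had an entry in RefSeq (GRCm38.p6; 250 bases before and 50 after the start). NRF1, GABPA, ERR and YY1 are factors long known to act on nuclear genes of the chain. The palindromic NRF1 motif, searched on both strands like all others, was in 23.7% of the promoters of these genes and in 4.78% of all 27025 promoters. The GABPA motif CCGGAAG was in 21.1% against 9.12%, the YY1 motif AANATGGCG in 11.8% against 2.51%, and the ERR motif TCAAGGTCA in 2.63% against 0.407%. The hypoxia element ACGTG was in 26.3% against 19.7%, the KLF motif CCCCACCC in 13.2% against 9.89%, and the muscle E-box CAGCTG in 7.89% against 16.1%.

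By direction of change, the NRF1 motif was in 8 of 29 promoters of rising genes and in 0 of 7 of falling genes, and the ACGTG letters were in 5 of 29 and 5 of 7. Over all 76 promoters, with those of genes not called, the NRF1 motif was in 18 and the ACGTG letters in 20. The share with NRF1 among rising genes was thus near that of all 76. The falling genes Cox4i2 and Cox6a2 had no promoter entry and are not in these counts. The KLF letters were in 4 of 29 and 2 of 7, the YY1 letters also in 4 of 29 and 2 of 7, the E-box in 2 of 29 and 2 of 7, the GABPA letters in 8 of 29 and 0 of 7, and the ERR letters in 2 of 29 and 0 of 7. These are matches of letters and do not show binding. A rising gene and a pair of falling muscle isoforms are shown with the matches in capitals. Atp5g3 (chr2:73911277-73911576, minus strand) holds the NRF1, ERR and ACGTG letters, Cox7a1 (chr7:30183921-30184220, plus strand) the ACGTG letters on the reverse strand, and Cox8b (chr7:140900397-140900696, minus strand) the ACGTG and E-box letters.

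Atp5g3: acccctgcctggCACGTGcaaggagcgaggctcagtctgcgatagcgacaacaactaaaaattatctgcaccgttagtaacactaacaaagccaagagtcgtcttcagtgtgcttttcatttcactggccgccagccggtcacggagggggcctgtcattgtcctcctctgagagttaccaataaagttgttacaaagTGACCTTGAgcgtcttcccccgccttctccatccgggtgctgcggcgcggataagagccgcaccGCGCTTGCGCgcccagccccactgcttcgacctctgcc
Cox7a1: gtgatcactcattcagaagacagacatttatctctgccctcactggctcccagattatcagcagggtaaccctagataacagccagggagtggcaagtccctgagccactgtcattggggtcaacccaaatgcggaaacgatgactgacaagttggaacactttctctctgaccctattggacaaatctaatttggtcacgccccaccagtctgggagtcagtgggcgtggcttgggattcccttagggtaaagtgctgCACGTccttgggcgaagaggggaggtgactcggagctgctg
Cox8b: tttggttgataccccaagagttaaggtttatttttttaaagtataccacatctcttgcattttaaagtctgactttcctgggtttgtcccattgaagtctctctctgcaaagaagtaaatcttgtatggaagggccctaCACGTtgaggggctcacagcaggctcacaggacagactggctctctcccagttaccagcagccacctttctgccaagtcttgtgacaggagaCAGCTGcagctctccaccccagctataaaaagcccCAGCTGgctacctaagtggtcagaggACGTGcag

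Genes that work around the chain were counted in the same comparison, from lists that hold none of the genes taken by the rule. The first list does hold Cyc1, a subunit of complex III whose symbol the rule does not match. The counts of each list stand beside 19.0% called higher and 19.3% called lower over all genes tested. Of 38 genes, mostly assembly and electron-carrier factors, 4 rose (10.5%) and 6 fell (15.8%), with a median of 0.01, so both shares were below those of all genes. Atpif1, the inhibitor of ATP synthase hydrolysis, rose from 636 ± 45.5 to 1055 ± 65.9 (0.73 ± 0.08), and Uqcc1, a complex III assembly factor, fell from 853 ± 66.4 to 637 ± 39.5 (-0.42 ± 0.08). Cox18, an insertase for the Cox2 protein, changed by 0.56 ± 0.11 and the assembly factor Coa7 by -0.53 ± 0.12.

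Of 24 genes for copying and expressing mitochondrial DNA 4 rose (16.7%) and 4 fell (16.7%), with a median of -0.02, near the shares of all genes. Polg2, the accessory subunit of the mitochondrial DNA polymerase, fell from 1159 ± 232 to 553 ± 169.7 (-1.09 ± 0.16, limma adjusted p = 1.68e-05), and Peo1, the Twinkle helicase, fell by 0.55 ± 0.12 on the log2 scale. Slirp, which stabilises mitochondrial messenger RNA, rose by 0.58 ± 0.11 and Pnpt1, an RNA-degrading enzyme of mitochondria, by 0.66 ± 0.12. The proteins of the mitochondrial ribosome, which are nuclear encoded and translate the 13 mitochondrial messages, had 35 of 76 tested genes higher and 2 lower, with a median of 0.25. Mrpl52 rose from 245 ± 28.1 to 495 ± 25.2 (1.02 ± 0.11), Mrps18c by 0.82 ± 0.09, Mrpl20 by 0.84 ± 0.09 and Mrpl15 by 0.70 ± 0.09.

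Regulators of mitochondrial biogenesis had 3 of 17 higher (17.6%) and 8 lower (47.1%), with a median of -0.18. Ppargc1b, a coactivator of mitochondrial genes, fell from 449 ± 164 to 79.2 ± 19.0 (-2.46 ± 0.27, limma adjusted p = 6.27e-07). Ppara, a nuclear receptor for fatty acids that is abundant in cardiomyocytes, fell from 158 ± 44.3 to 34.8 ± 13 (-2.18 ± 0.24). Prkaa2, a catalytic subunit of AMP-activated kinase, fell by 1.37 ± 0.14, and Myc, a growth regulator, rose from 255 ± 75.3 to 1262 ± 442 (2.28 ± 0.24). Among 10 carriers and related genes 5 rose and 3 fell: the outer-membrane channels Vdac1 and Vdac2 rose by 0.55 ± 0.06 and 0.69 ± 0.07, and Ucp3, a muscle uncoupling protein, fell from 192 ± 103 to 15.6 ± 2.1 (-3.41 ± 0.34). Ckmt2, the muscle creatine kinase of mitochondria and also 1 of the cardiomyocyte markers, changed by -1.43 ± 0.16.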

How the data were processed

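The labels describe 16 RNA samples from mouse heart endothelial cells, prepared with a stranded Illumina kit. The submitters' processing notes list TopHat and Cuffdiff as tools and GRCm38 as the build, with no roles. The counting tool, and any use of strand: not given in the sources used here. Deposited by the authors was 1 gene table whose 16 library columns hold a signal, gene read counts divided by 1 factor per library: 100% of values came out as whole reads within 0.001. Per the file headers, the table also holds the authors' linear fold ratio, p-value and adjusted p-value for each comparison. Of these, only the ratio and adjusted p-value of DKO against control were used, to count the authors' calls. No library column was left unused (0).

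Genes that reached a value of 1 in 4 or more libraries (23816) were tested with limma 3.58.1 in R 4.3.3 (trend) on log2(value + 1), in 1 model of 4 group means, with Benjamini-Hochberg adjustment over all genes and a threshold of 0.05. A change on this scale understates low genes. Alternatives were edgeR 4.0.16 and DESeq2 1.42.0 on the recovered reads, another pseudocount, other filters, other scalings, a fit of only the libraries compared, robust limma, a replicate block and leaving out each library. The scripts were tested on simulated data. K2KO and DKO-labelled columns are numbered 2 to 5 and were not linked to single samples. P-values measure only the spread between these pools of 2 mice. Genes were named by rule: the 10 largest rises and falls among called nuclear genes with a higher group mean of at least 100, all mitochondrial genes, isoform pairs, those of smallest p in the interaction, and up to 4 genes of smallest p per other list. A gene that this rule takes is left out of the text. Other genes were named after their values were seen: Ndufs3, Sdhd, Uqcrc2 and Atp5a1. The genes and lists were chosen with earlier results of these data known. Shared 50-base words came from GENCODE M21 transcripts and promoters from RefSeq.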

Additional observations from a re-analysis of the deposited data

Results flagged for a closer look

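Of 188 groups of 4 libraries examined for a value far from the other 3, 8 had one, where chance gives about 1 in 20. Control 4 had 603.1 for Uqcrb against 404.8 to 430.0 in the other controls, a mitochondrial minus nuclear mean log2 level of 5.394 against 4.932 to 5.008, and a cardiomyocyte marker sum of 572600 against 242500 to 279700. K4KO 4 had 173.5 for Atp5g1 against 146.3 to 150.0, 1695 for Cox4i1 against 2979 to 3103 and 73.44 for Cox8b against 130.2 to 141.3. K2KO column 3 had 594.4 for mt-Nd6 against 424.9 to 433.9, and DKO-labelled column 5 had 1.062 for Cox7b2, a single read, against 0 in the others.

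The difference between DKO-labelled and K2KO differed from that between K4KO and control for 21 of the named genes, by the limma interaction test. The interaction was positive for Ndufc2 (1.15), Ndufb6 (0.64), Atp5f1 (0.54), Atp5b (0.52), Uqcrb (0.50), Atp5g3 (0.48), Cox6a1 (0.47), Cox7b (0.42), Cox6b1 (0.36) and Cox7a2 (0.29). It was negative for Cox8b (-1.98), Cox7a1 (-1.95), Cox6a2 (-1.64), Atp5g1 (-0.94) and Cox4i2 (-0.55). Among the mitochondrially encoded genes it was negative for mt-Nd2 (-1.01), mt-Nd6 (-0.83), mt-Nd4 (-0.73), mt-Nd5 (-0.68), mt-Cytb (-0.56) and mt-Nd1 (-0.51). The interaction rests on libraries labelled DKO in which neither Klf2 nor Klf4 was called lower.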

How the results depend on the processing

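With the libraries set to the same median, nuclear genes called higher against controls went from 34 to 63, mitochondrial genes called lower from 5 to 2, genes called against K2KO from 44 to 67 and in the interaction from 27 to 52. With the same sum outside the mitochondrial chromosome, nuclear genes called lower went from 9 to 14 and those called higher from 34 to 23. Robust limma without a trend gave 17 in the interaction. These settings rescale the libraries or change the model of the spread, and the cause of each shift was not tested. Leaving out 1 library of the groups compared at a time gave 30 to 34 nuclear genes higher, 7 to 9 lower, 5 to 6 mitochondrial genes lower, 0 in K2KO, 0 in K4KO, 39 to 45 against K2KO, 43 to 49 against K4KO and 19 to 29 in the interaction. Over all 16 libraries left out in turn, with those of K2KO and K4KO in the shared model, the nuclear counts against controls were 30 to 36 higher and 7 to 10 lower. A fit of only the libraries compared could not be made for the interaction, which uses all groups.

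Of 626 values for 35 named genes under alternatives, 593 kept direction and side of the threshold, 17 lost the call, 9 gained it and 7 changed sign. With the same median Ndufb10 was 0.03, mt-Co1 0.00 (limma adjusted p = 0.998) and Atp5g2 0.21. Atp5g2, which has few reads, was also 0.30 with quantile normalisation and ran from -0.21 to 0.05 when 1 library was left out, being 0.05 without control 3, 0.02 without DKO-labelled column 2 and 0.05 without column 4. With a replicate block for the numbers that control and K4KO libraries share, 0 genes of the chain were called, as without the block, and 14 of 23816 genes in all. Same-numbered control and K4KO libraries 1 to 4 correlated at 0.0495, 0.0453, 0.0954 and 0.319. The highest correlation of each of these controls with a K4KO library of another number was 0.0397, 0.187, 0.0404 and -0.0567. Number 4 thus stood out most, and whether the numbers pair the libraries is not known. The depth of 21.1 to 106 M reads (megareads) limits what can be said of Cox6b2, Cox7b2, Cox8c and Atp5g2, and 6 mitochondrial genes had 0 or 1 read.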
